A study of Rattus norvegicus with 6 samples.

Results

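Dhrs7l1, Mettl7b, Gimd1 and LOC100360095 were the 4 genes described here, out of 32623 genes in the deposited table of rat liver expression. They were picked by name because their levels were far lower after embolization in these same libraries and because they are not cytochrome P450 genes. The difference between the groups therefore chose them, and it is given as a description without a test. Each symbol matched 1 row of the table. RNA from liver of Rattus norvegicus was sequenced in 3 libraries of an untreated control group, named HCC for hepatocellular carcinoma, and in 3 libraries of a group given transarterial embolization (TAE), which blocks the arteries that feed a liver tumour. The sources used here do not give strain, sex, age, the time after the procedure, or whether the tissue was tumour or surrounding liver. The replicates are called biosamples with no word on whether they were separate animals, and the spread between libraries may be technical. Total counts were 13448286 to 16604067 per library.

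The 4 genes do unlike things. Short-chain dehydrogenases/reductases, the family of Dhrs7l1, use NAD(P)(H) to oxidise or reduce steroids, retinoids, sugars and foreign compounds, and liver is rich in them. Mettl7b, which RefSeq also lists as Tmt1b, encodes a membrane methyltransferase of the endoplasmic reticulum and lipid droplets that methylates thiols, hydrogen sulfide among them. Gimd1 encodes a protein with the GTP-binding domain of the GIMAP family, whose other members are best known from lymphocytes. LOC100360095 is annotated as urinary protein 1-like (Rup-4 in RefSeq), a small protein placed in the extracellular region by the table's annotation. Alb, the gene of serum albumin, which hepatocytes secrete in bulk, served as the reference within each library.

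In the deposited table LOC100360095 (ENSRNOG00000043131) lies on the minus strand of chromosome 8, 38150659 to 38154344, with 592 exonic bases. Dhrs7l1 (ENSRNOG00000025648) lies on the minus strand of chromosome 6, 95387718 to 95502845, with 2719 exonic bases. Mettl7b (ENSRNOG00000007927) lies on the minus strand of chromosome 7, 3383879 to 3386522, with 1264 exonic bases, and Gimd1 (ENSRNOG00000042721) on the plus strand of chromosome 2, 237679792 to 237714428, with 1618 exonic bases. These are the table's own coordinates. Their build is not settled, because gene ends on chromosome 1 reach 282724300, past the end of that chromosome in the build that the submitters' processing notes name (mRatBN7.2). The row of Dhrs7l1 spans 115128 bases, whereas RefSeq gives the gene a span of 22806 bases in GRCr8, so the counting model of this gene is uncertain. The row of Mettl7b overlaps 797 bases of Itga7, an integrin gene on the opposite strand, and although the libraries were made with strand marking, the sources used here do not say whether the counting used it.

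Promoter windows of the 4 genes were taken from RefSeq in GRCr8 as 250 bases before to 50 bases after the start. Those of LOC100360095 and Gimd1, the members with the largest and the smallest fall, are shown because they alone held a match to a searched motif, which is in capitals.
LOC100360095, chr8:42933818-42934117, minus strand: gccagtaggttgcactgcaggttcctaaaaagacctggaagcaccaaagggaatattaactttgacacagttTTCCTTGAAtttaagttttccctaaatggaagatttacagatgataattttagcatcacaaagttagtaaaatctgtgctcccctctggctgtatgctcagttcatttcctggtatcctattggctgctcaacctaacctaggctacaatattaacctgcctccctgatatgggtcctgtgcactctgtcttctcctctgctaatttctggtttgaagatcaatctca
Gimd1, chr2:223777649-223777948, plus strand: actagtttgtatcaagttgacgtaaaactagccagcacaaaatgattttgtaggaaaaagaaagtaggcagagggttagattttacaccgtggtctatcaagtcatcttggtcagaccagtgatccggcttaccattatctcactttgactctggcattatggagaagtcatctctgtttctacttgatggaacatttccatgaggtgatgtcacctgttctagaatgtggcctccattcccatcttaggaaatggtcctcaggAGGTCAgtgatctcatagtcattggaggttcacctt
The capitals in the LOC100360095 window fit the STAT pattern TTCNNNGAA, starting 178 bases before the start, a pattern found in 8.87% of 33469 RefSeq rat windows of the same length. Those in the Gimd1 window are the nuclear receptor half-site AGGTCA, 15 bases after the start, a motif in 16.2% of the windows. Also searched on both strands were HNF4 (CAAAGTCCA, in 0.391% of windows), FOXA (TGTTTAC, 3.78%), C/EBP (TTGCNNAA, 10.6%), HNF1 (0.00299%), the antioxidant response element (TGACNNNGC, 12.1%) and the TATA box (TATAAA, 14.2%). None of the 4 windows held these letters, and no motif was shared between them. The G and C content of the windows was 41.3% for LOC100360095, 42.3% for Gimd1, 47.3% for Dhrs7l1 and 49.3% for Mettl7b, against a median of 51.7%.

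LOC100360095 was the most abundant member in HCC and fell the most. Its level was 94.6, 266 and 101 FPKM (counts scaled to exonic length and library total) in HCC replicates 1, 2 and 3, and 6.04, 5.3 and 4.98 FPKM in TAE replicates 1, 2 and 3. HCC replicate 2 stood well above the other HCC libraries, while the TAE libraries lay close together with counts of 52, 52 and 49. The group means were 154 ± 96.9 and 5.44 ± 0.544 FPKM (SD, n = 3 per group), so 3.54% of the HCC mean was left. The log2 change was -4.87 ± 0.47 (SE, edgeR), the largest fall among 14499 genes tested. Without HCC replicate 2 it was -4.21. The lowest HCC library was 15.7 times as high as the highest TAE library.

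Dhrs7l1, of the short-chain dehydrogenase/reductase family, had 41.4, 40.1 and 31.8 FPKM in HCC replicates 1 to 3 and 7.23, 4.13 and 6.29 FPKM in TAE replicates 1 to 3. The groups were 37.7 ± 5.21 and 5.88 ± 1.59 FPKM, a log2 change of -2.71 ± 0.27. The lowest HCC library exceeded the highest TAE library 4.39-fold.

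Mettl7b, the thiol methyltransferase, had 36.2, 57.0 and 42.1 FPKM in HCC and 12.6, 9.26 and 9.01 FPKM in TAE, in the order of the replicates. Its means were 45.1 ± 10.7 and 10.3 ± 2.01 FPKM, a log2 change of -2.18 ± 0.23. As for LOC100360095, HCC replicate 2 was the highest library. Itga7, which overlaps it on the other strand, had a log2 change of -0.85 ± 0.22 (edgeR adjusted p = 0.0821), so reads of one gene counted for the other cannot be told apart here.

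Gimd1 was the least abundant member, with 2.62, 2.76 and 2.36 FPKM in HCC and 0.930, 0.710 and 0.600 FPKM in TAE. Its means were 2.58 ± 0.203 and 0.747 ± 0.168 FPKM, a log2 change of -1.85 ± 0.27. These levels rest on 54 to 61 counts per HCC library and 16 to 22 per TAE library. The exact 95% Poisson interval, which covers counting error only, was 1.77 to 3.08 FPKM in HCC replicate 3, the lowest control, and 0.586 to 1.41 FPKM in TAE replicate 1, the highest treated library.

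All 4 genes were lower in every TAE library than in any HCC library, a pattern shown by 5.54% of the genes tested, and all 4 were among the 45 genes that edgeR's quasi-likelihood test called lower (0.31% of the genes tested, at an adjusted p of 0.05). Genes called in either direction made up 3.01%. Since these values chose the genes, nothing is read from either count. The number called lower was 0, 1 and 0 without HCC replicates 1, 2 and 3, and 1, 1410 and 517 without TAE replicates 1, 2 and 3. By size of fall, LOC100360095, Dhrs7l1, Mettl7b and Gimd1 stood at places 1, 4, 11 and 14 among the 45. The genes next to Dhrs7l1 in that order were LOC100361492 (-2.96), a Cyp2c55-like gene, and Cyp2c11 (-2.66). Mettl7b lay between LOC689065 (-2.24), at under 1 FPKM, and Cyp2c24 (-1.93), and Gimd1 between Cyp2c12 (-1.89) and Cyp4a3 (-1.79), all given as log2 changes.

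**Figure D1:**
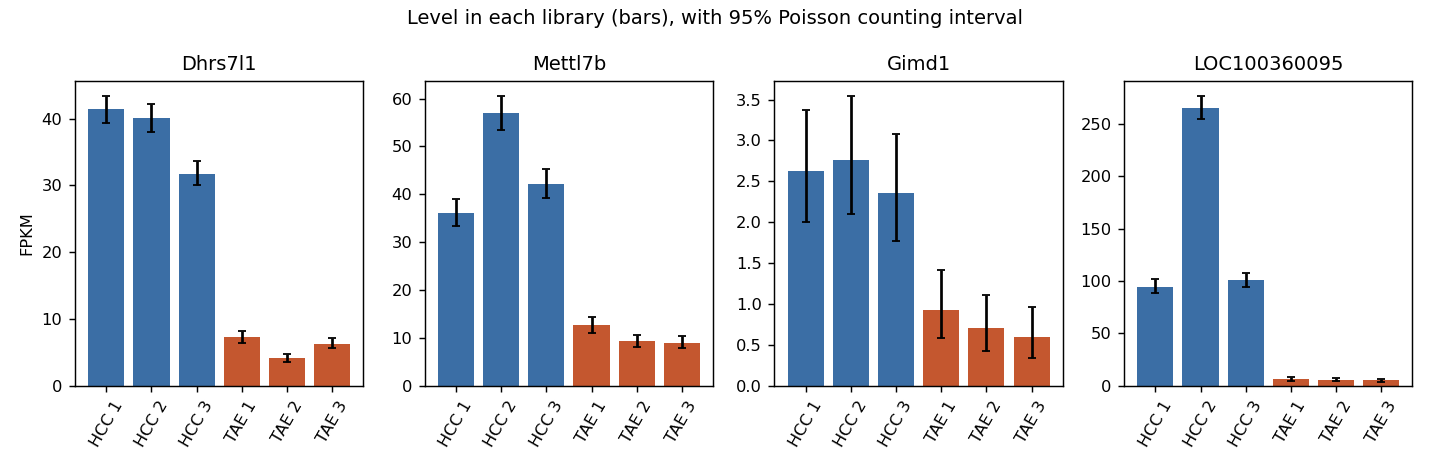
Level of each gene in FPKM (y axis, linear from 0, a scale of its own per panel) in the 3 HCC and 3 TAE libraries; bars are single libraries and error bars the 95% Poisson counting interval. For LOC100360095 the HCC bars span 94.6 to 266 FPKM and the TAE bars 4.98 to 6.04 FPKM, and for Gimd1 the intervals are wide because its TAE bars rest on 16 to 22 counts.

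The libraries of the TAE group did not share 1 level of hepatocyte RNA. Alb stood at 12096, 14853 and 15868 FPKM in HCC replicates 1 to 3, and at 6948, 5318 and 15304 FPKM in TAE replicates 1 to 3, so that TAE replicate 3 lay within the HCC range. The summed level of 26 hepatocyte markers, all of them with counts in these libraries, was 65337 to 79057 CPM (counts scaled to the library total) in HCC, 40604 in TAE replicate 1, 28826 in TAE replicate 2 and 89356 in TAE replicate 3. In these bulk libraries fewer hepatocytes and less RNA per hepatocyte cannot be told apart. The 4 genes were low in TAE replicate 3 all the same. Relative to the HCC mean of log2 CPM, LOC100360095 stood at -4.58, Dhrs7l1 at -2.43, Mettl7b at -2.15 and Gimd1 at -1.85 in that library, whereas Alb stood at 0.25 and the median hepatocyte marker at 0.38. The lowest marker there was Pck1, the gluconeogenic enzyme PEPCK, at -1.53, though its HCC libraries themselves spread from -1.84 to 1.09.

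In TAE replicates 1 and 2, in which Alb and most hepatocyte markers were lower than in HCC, the distance between the 4 genes and the markers was smaller. The median marker stood at -0.81 and -1.62 in these libraries, and Gimd1 at -1.47 and -1.93. Apoa1, the main protein of high-density lipoprotein, lay below Gimd1 in TAE replicate 1, at -1.56, and Tdo2, which degrades tryptophan, lay below it in TAE replicate 2, at -1.98. LOC100360095, Dhrs7l1 and Mettl7b lay below all 26 markers in each of the 3 TAE libraries, and Gimd1 in TAE replicate 3 alone. Over the group, the log2 changes of the 26 markers ran from -1.67 (Pck1) to 0.65 (Arg1, the urea cycle arginase), with 25 of them negative, a median of -0.45 and 0 called by edgeR (3 at an unadjusted p under 0.05). The median of all genes tested was -0.03.

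**Figure D2:**
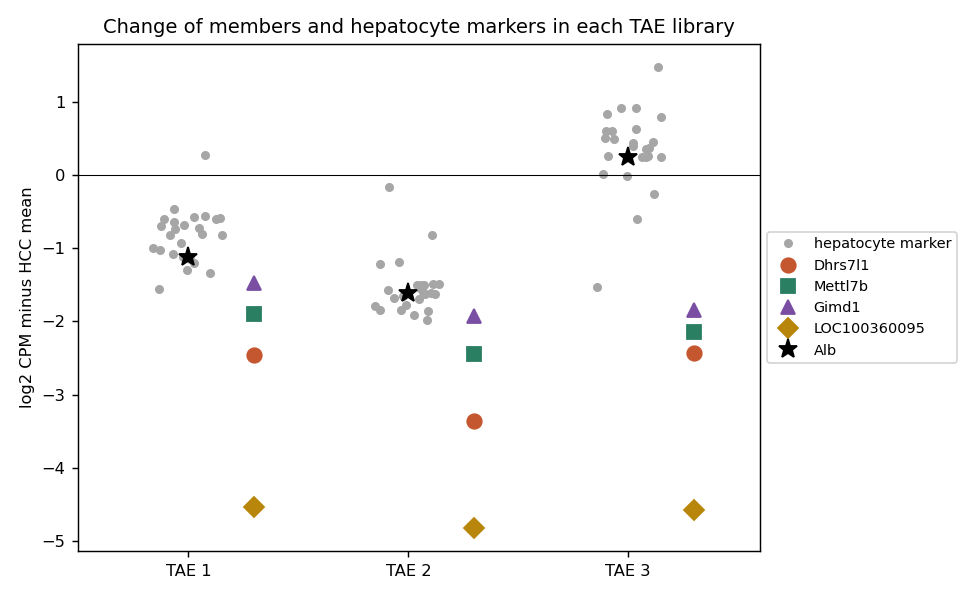
Each of the 3 TAE libraries (x axis) with the log2 CPM of a gene minus its HCC mean (y axis); grey points are hepatocyte markers, the star is Alb and coloured symbols are the 4 genes. The markers sit mostly below 0 in TAE replicates 1 and 2 and mostly above 0 in TAE replicate 3, while LOC100360095 stays between -4.82 and -4.54 in all of them.

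Set against Alb in the same library, the 4 genes were also lower in every TAE library than in any HCC library, as were 0.414% of the genes tested. Over all genes tested, the median log2 change of the ratio to Alb was 0.78. The same member values enter this ratio, so it too is a description. LOC100360095 had 7.82, 17.9 and 6.35 FPKM per 1000 FPKM of Alb in HCC replicates 1 to 3 and 0.869, 0.997 and 0.325 in TAE replicates 1 to 3. Its log2 ratio to Alb fell by 3.86, from -8.51 ± 0.789 to -12.37 ± 0.879 (SD, n = 3 per group). The TAE libraries stayed far below the controls on this scale, with TAE replicate 3 the lowest.

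For Dhrs7l1 the values were 3.42, 2.7 and 2.00 FPKM per 1000 FPKM of Alb in HCC and 1.04, 0.777 and 0.411 in TAE. Its log2 ratio fell by 1.93. Mettl7b had 2.99, 3.83 and 2.65 in HCC and 1.81, 1.74 and 0.589 in TAE on the same scale, and its log2 ratio fell by 1.34. On the log2 scale TAE replicates 1 and 2 of Mettl7b were nearer to the HCC mean, at -0.78 and -0.84 from it, than to TAE replicate 3, at -2.40. Without that library the log2 ratio change was -0.81.

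The ratio of Gimd1 to Alb was 0.217, 0.186 and 0.149 FPKM per 1000 FPKM of Alb in HCC and 0.134, 0.134 and 0.0392 in TAE, with a log2 ratio change of -1.01. The change was -0.42 without TAE replicate 3. The gap between HCC replicate 3 and TAE replicates 1 and 2 was smaller than the counting error of Gimd1 at this depth. Ttr, the thyroxine carrier transthyretin, and Apoa1 gave the same directions as Alb when used as the reference for all 4 genes, with smaller falls. With Ttr the log2 ratio changes were -3.73 for LOC100360095, -1.80 for Dhrs7l1, -1.21 for Mettl7b and -0.88 for Gimd1. With Apoa1 they were -3.53, -1.60, -1.01 and -0.67 in the same order. The geometric mean of the 26 hepatocyte markers was also used in place of TMM scaling. The log2 changes were then -4.03 ± 0.68 for LOC100360095, -2.03 ± 0.61 for Dhrs7l1, -1.36 ± 0.60 for Mettl7b and -1.04 ± 0.66 for Gimd1 (SE, edgeR). These SEs were larger than those with TMM scaling, and the marker scaling moved the median of all genes tested to 0.83.

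**Figure D3:**
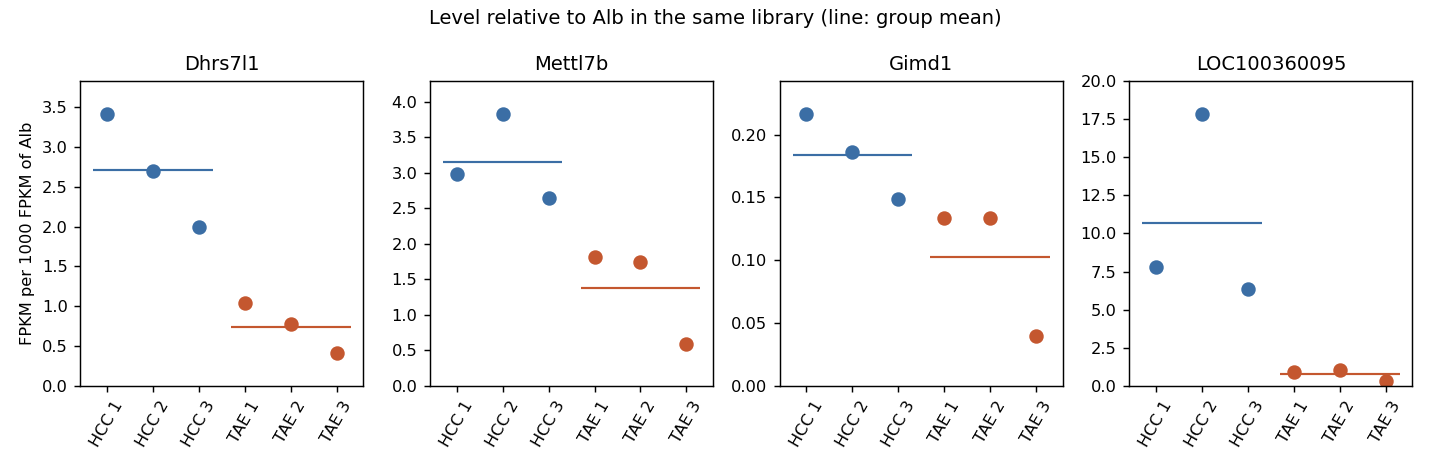
FPKM of each gene per 1000 FPKM of Alb (y axis, linear from 0, a scale of its own per panel) in each library; points are libraries and lines the group means. TAE replicate 3 is the lowest library in all 4 panels, and for Gimd1 the TAE replicates 1 and 2, at 0.134 each, lie close to the lowest HCC library at 0.149.

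Each gene was next set beside its relatives, named here after their values were seen. RefSeq also lists Dhrs7 as a synonym of Dhrs7l1, so the names can be confused. The separate row named Dhrs7, the neighbour and closest namesake of Dhrs7l1, starts 19732 bases beyond it on the same strand. Its mean was 14.8 ± 1.22 FPKM in the HCC group against 15.2 ± 3.21 in the TAE group, with a log2 change of 0.01 ± 0.24 (edgeR adjusted p = 0.983). Dhrs7b, on chromosome 10, had a log2 change of -0.0024 ± 0.13 (edgeR adjusted p = 0.993). Mettl7a, the sister gene of Mettl7b, had 16.9, 16.5 and 16.3 FPKM in HCC against 16.8, 12.2 and 28.6 in TAE, with a log2 change of 0.22 ± 0.36 (edgeR adjusted p = 0.727). Its highest library was TAE replicate 3, whereas Mettl7b was at 9.01 FPKM there.

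Other urinary protein genes of chromosome 8 did not pass. Rup2, urinary protein 2, had 2058, 2281 and 1987 FPKM in HCC and 986, 658 and 2332 FPKM in TAE, for a log2 change of -0.64 ± 0.50 (edgeR adjusted p = 0.453). Its ratio to Alb was 125 to 170 FPKM per 1000 FPKM of Alb in HCC and 124 to 152 in TAE, so that the ranges overlapped. LOC680406, annotated as similar to Rup2, averaged 849 ± 86.1 FPKM in HCC against 556 ± 368 in TAE and was likewise highest in TAE replicate 3. LOC100912405, a urinary protein 3-like gene, averaged 4.84 ± 0.298 FPKM across HCC libraries and 1.51 ± 1.09 across TAE libraries (-1.67 ± 0.59 as a log2 change, edgeR adjusted p = 0.158). Like LOC100360095, it was lower in every TAE library than in any HCC library, as were 5.54% of the genes tested. The same held relative to Alb (0.414% of the genes tested), at 0.304 to 0.404 FPKM per 1000 FPKM of Alb in HCC and 0.0865 to 0.207 in TAE. These genes carry names of the same family as LOC100360095. Their sequences were not compared here, so how far reads could be shared between them was not tested.

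**Figure D4:**
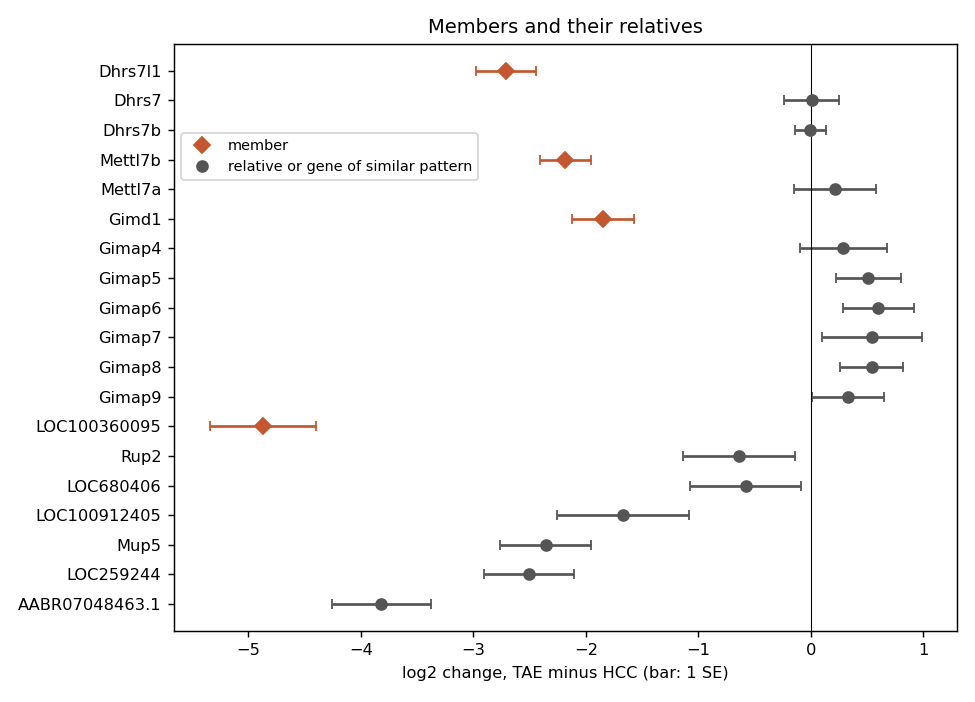
Log2 change of TAE minus HCC (x axis) with 1 SE from edgeR, for the 4 genes (diamonds) and for relatives or genes of similar pattern (circles). Dhrs7, Dhrs7b and Mettl7a sit near 0, the Gimap genes above it, and Rup2 at -0.64 lies far from LOC100360095 at -4.87.

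The gene lists drawn around the 4 genes are to be read beside all genes tested, of which 0.31% were called lower and 2.7% higher, 3296 of 14499 had an unadjusted p under 0.05, 53.1% had a negative change and the median log2 change was -0.03. Of 40 short-chain dehydrogenase/reductase genes tested, 1 fell, none rose and 39 did not pass, with 34 negative changes and a median log2 change of -0.30. The gene that fell was Bdh1, the mitochondrial enzyme that interconverts ketone bodies, from 51.5 ± 5.38 to 27.3 ± 3.14 FPKM (edgeR adjusted p = 0.0497). It did not pass when any HCC library or TAE replicate 1 was left out, while 2 genes of the list fell and 2 rose without TAE replicate 2, and 10 fell without TAE replicate 3. The most abundant genes of the list were Hsd17b11, a lipid droplet enzyme, at 81.3 ± 7.86 and 80.0 ± 30.6 FPKM, and Hsd17b4 of peroxisomal fatty acid oxidation, at 94.5 ± 0.884 and 66.0 ± 16.8 FPKM.

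Of 18 genes for methylation of small molecules and for the methyl donor cycle, none passed in edgeR (1 at an unadjusted p under 0.05, 1 lower by DESeq2) and 16 changes were negative, with a median of -0.26. Without TAE replicate 3 edgeR called 6 of them lower, and without TAE replicate 2 it called 2. Mat1a, the liver enzyme that makes the methyl donor S-adenosylmethionine, averaged 158 ± 18.2 FPKM in HCC against 138 ± 124 in TAE, and Ahcy, which removes the product S-adenosylhomocysteine, averaged 156 ± 5.66 and 129 ± 13.5.

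Of 8 genes for making or disposing of hydrogen sulfide, none passed in edgeR (3 at an unadjusted p under 0.05, 1 higher by DESeq2) and 5 changes were negative, with a median of -0.25. Without TAE replicate 3 edgeR called 3 lower and 1 higher, and without TAE replicate 2 it called 2 higher. The sulfurtransferase Tst stood at 71.3 ± 5.17 and 50.7 ± 29.7 FPKM, Sqor, which oxidises sulfide in mitochondria, at 35.5 ± 5.22 and 27.6 ± 3.20, and Mpst, which makes sulfide, at 22.3 ± 2.39 and 23.7 ± 3.16. The persulfide dioxygenase Ethe1, named after its value was seen, went the other way, at 15.9 ± 2.45 and 29.8 ± 2.90 FPKM (log2 change 0.86 ± 0.18, edgeR adjusted p = 0.0508).

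None of 21 lipid droplet genes passed in edgeR (2 at an unadjusted p under 0.05, 0 by DESeq2), and 16 changes were negative, with a median of -0.28. Without TAE replicate 3 edgeR called 4 lower, and without TAE replicate 2 it called 1 lower and 1 higher. Plin2, the main droplet coat protein of hepatocytes, averaged 120 ± 14.6 FPKM in HCC against 203 ± 57.1 in TAE (a log2 difference of 0.75 ± 0.29, edgeR adjusted p = 0.184), and Rab18, a droplet GTPase, averaged 45.1 ± 3.05 and 44.4 ± 6.79. None of the 6 GIMAP genes passed in edgeR (0 at an unadjusted p under 0.05, 0 by DESeq2). All 6 had positive changes, from 0.29 for Gimap4 to 0.60 for Gimap6, with a median of 0.53, whereas that of Gimd1 was negative. Gimap4 stood at 17.1 ± 2.75 and 20.9 ± 9.84 FPKM, Gimap7 at 10.8 ± 2.51 and 15.7 ± 8.19, and Gimap5 at 4.94 ± 0.882 and 7.17 ± 1.79. T and NK cell markers, with 0 of 10 tested called by edgeR (2 at an unadjusted p under 0.05), summed to 227 to 320 CPM in HCC and 411 to 674 CPM in TAE. Most of that difference lay in Cd8a, at a mean of 66.4 FPKM in HCC and 161 in TAE, and in Cd4, at 28.5 and 72.0, which rat macrophages also express. The CD3 genes Cd3d, Cd3e and Cd3g had overlapping groups and log2 changes of 0.36, 0.10 and 0.34. The log2 changes of Cd2 and Nkg7 were 0.61 and 0.78, and those of Cd5, Prf1 and Gzmb were 0.03, 0.08 and -0.11. Klrb1 was too low to be tested, at 0.11 to 0.12 FPKM in HCC and 0.21, 0 and 0 FPKM in TAE replicates 1 to 3. Relative to the HCC mean, the median of these T and NK markers was -0.44 in TAE replicate 1, 0.02 in replicate 2 and 1.11 in replicate 3. The part of these cells in the GIMAP levels was not tested.

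Of 11 genes of urinary proteins, alpha-2u globulins and Ly6/uPAR proteins tested, 2 fell, none rose and 9 did not pass in edgeR. There were 5 at an unadjusted p under 0.05, 3 called lower by DESeq2 and 6 negative changes, with a median of -0.35. In FPKM, 3 were lower in every TAE library than in any HCC library (5.54% of the genes tested) and 3 were higher (21.9%). The 3 higher, named after their values were seen, were Ly6e, Lypd1 and Cd59, with log2 changes of 0.49, 0.79 and 0.29. Both genes that edgeR called lower belong to the alpha-2u globulins, lipocalins that rat liver secretes into plasma and that reach the urine. LOC259244, alpha-2u globulin PGCL3, had 141, 274 and 187 FPKM in HCC and 37.1, 22.4 and 47.0 in TAE, or -2.51 ± 0.40 as a log2 change (edgeR adjusted p = 0.0388). Mup5, major urinary protein 5, had 120, 243 and 157 FPKM in HCC and 33.6, 22.2 and 46.2 in TAE, which gave a log2 change of -2.36 ± 0.40 (edgeR adjusted p = 0.0398). Neither passed when any HCC library or TAE replicate 1 was left out, and 4 genes of the list fell without TAE replicate 3. Their rows overlap on chromosome 5, so they are not independent.

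Likeness of pattern was measured as the root mean square distance between log2 CPM profiles over the 6 libraries, each centred on its HCC mean, among genes with a mean of at least 1 FPKM. The 4 members were left out of this ranking, and their distances from each other are given after it. Nearest to LOC100360095 was AABR07048463.1, an unnamed gene on chromosome 5 (77744450 to 77749613), at a distance of 0.74. It had 53.8, 154 and 78.9 FPKM in HCC and 8.35, 5.83 and 6.82 in TAE. Like LOC100360095 it was highest in HCC replicate 2, and it lies within the span of the row of Mup5. The next genes that are no members, LOC100361492 and Cyp2c11, were at 1.44 and 1.48, about as far as the member Dhrs7l1 at 1.43.

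Dhrs7l1 was nearest to Cyp2c11, a steroid hydroxylase, at 0.25, followed by LOC259244 at 0.38 and Mup5 at 0.45. Among genes that are no members, Mettl7b was nearest to Mup5, Cyp4a3 and Cyp4a1, at 0.40, 0.40 and 0.41, where the Cyp4a genes encode fatty acid hydroxylases. Gimd1 was nearest to Slc39a4, a zinc importer, at 0.21, from 3.95 ± 0.404 FPKM in HCC to 1.39 ± 0.313 in TAE, followed by Cyp4a1 at 0.31 and the glutathione transferase Gstm1 at 0.34. Among the members themselves, Mettl7b and Gimd1 were closest (0.34), Dhrs7l1 and Mettl7b came next (0.51), and LOC100360095 was 1.43 or more from each of the others. Alb was 0.89 from Gimd1, 1.09 from Mettl7b, 1.43 from Dhrs7l1 and 2.78 from LOC100360095. All genes named as nearest were themselves called lower in TAE by edgeR, and distances between genes that all fell say little beyond the size of the fall.

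On the chromosome, other genes within 100000 bases of a member and with enough counts to be tested did not pass. Aimp1 and Tbck near Gimd1 had log2 changes of -0.37 and 0.06. Around Mettl7b, Sarnp, Gdf11, Cd63, Rdh5 and Bloc1s1 ran from -0.56 to 0.41. Besides Dhrs7, the unnamed AABR07064804.1 near Dhrs7l1 had -0.19. Near LOC100360095, AABR07069728.1 had -0.47 at under 1 FPKM.

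Except for hepatocyte and erythroid markers, the summed markers of each cell type were higher in every TAE library than in any HCC library. Some single markers overlapped between the groups. Of 16 macrophage and monocyte markers, 8 rose and none fell, where 2.7% of all genes tested were called higher. In edgeR 12 of the 16 had an unadjusted p under 0.05, against 3296 of 14499 genes tested. The sum of the 16 was 2979 to 3538 CPM in HCC and 7272 to 11593 in TAE. The Kupffer cell markers Cd163, Marco, Clec4f and Vsig4 were not among the 8, with log2 changes of -0.10, -0.05, -0.38 and 0.42. Each of these Kupffer cell markers was highest in TAE replicate 3. Of 10 stellate cell and fibroblast markers, edgeR called 1 higher (Lum), and 9 had an unadjusted p under 0.05. The sum went from 1976 to 3179 CPM in HCC to 5115 to 13936 in TAE. Of 7 cholangiocyte markers tested, edgeR called 1 higher (Cftr), and 5 had an unadjusted p under 0.05. The sums of all 8 markers were 35.0 to 102 CPM in HCC and 187 to 427 in TAE. Most of the difference in that sum lay in Spp1, which macrophages also express, at a mean of 19.5 FPKM in HCC and 158 in TAE. The log2 changes of Krt19, Epcam, Sox9 and Prom1 were 1.41, 0.83, 0.76 and 1.86, and that of Krt7 was -0.22. In edgeR 0 of 10 endothelial, 0 of 5 neutrophil, 0 of 6 B and plasma cell and 0 of 3 erythroid markers tested were called, with 5, 4, 3 and 0 at an unadjusted p under 0.05. Endothelial sums were 343 to 388 CPM in HCC and 446 to 711 in TAE. Neutrophil sums were 54.8 to 81.5 and 102 to 147 CPM, and B and plasma cell sums 8.63 to 13.4 and 22.3 to 83.9 CPM. The erythroid sums overlapped, at 165 to 248 CPM in HCC and 146 to 562 in TAE. Without any 1 HCC library or without TAE replicate 1, edgeR called 0 genes higher in all, so every call in this paragraph was lost, although 1997 to 2243 genes then had an unadjusted p under 0.05. No marker of the macrophage, stellate cell and cholangiocyte lists was at 0 in all libraries, and the part of these cells in the fall of the 4 genes was not tested.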

How the data were processed

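Liver RNA of 3 HCC and 3 TAE libraries was compared, grouped by title. Per the labels' protocols, libraries were made from poly(A) RNA with dUTP strand marking. The authors deposited 1 table that gives, for every library, raw read counts of genes beside their FPKM. FPKM equalled the count scaled to exonic size and library total (100% of values within 0.006 when recomputed). For aligner, counter and annotation release: not given in the sources used here. Counts were fitted with edgeR 4.0.16 (R 4.3.3, TMM, filterByExpr, quasi-likelihood test, two-sided, TAE minus HCC) on 14499 genes with Benjamini-Hochberg adjustment and a threshold of 0.05. The SE is the absolute log2 change divided by the square root of F. Ratios to Alb used counts plus 0.5. Log2 CPM used a prior count of 2. The members and lists were chosen with earlier results of these data known. Named genes were the members, Alb, Ttr, Apoa1, the 3 genes nearest in pattern to each member, and, per list, genes that passed (up to 6) or, where fewer than 3 passed, also the most abundant (3 named in all); others are said to be chosen after their values were seen. A gene that this rule names is not reported here. Of list entries, 44 of 49 dehydrogenases, 22 of 23 methylation, 9 of 10 sulfide, 24 of 24 lipid droplet, 6 of 7 GIMAP and 23 of 30 urinary and Ly6 genes matched by symbol. Alternatives were other scalings, filters, pseudocounts, references, a replicate block, DESeq2 1.42.0, limma 3.58.1 and leaving out each library. Scripts were tested on simulated counts.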

Additional observations from a re-analysis of the deposited data

How the results depend on the processing

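All 4 members stayed lower in TAE under the 15 alternatives for their change and the 11 for their ratio to Alb. Because the members were chosen for this fall and their groups did not overlap, leaving out a library could hardly reverse the direction. The replicate block leaves the ratio to Alb unchanged by construction, so neither is a test of the fall. Scaling to the hepatocyte markers gave log2 changes of -2.03 ± 0.61, -1.36 ± 0.60, -1.04 ± 0.66 and -4.03 ± 0.68 (SE) for Dhrs7l1, Mettl7b, Gimd1 and LOC100360095, because the median of all genes then moved to 0.83. On log2(FPKM + 1), Gimd1 changed by -1.04, since a pseudocount shrinks low genes. Leaving out each library gave -5.13 to -4.21 for LOC100360095 (the latter without HCC replicate 2) and -1.33 to -0.29 for Alb (the former without TAE replicate 3). The counts of calls depended on the setting. Against 392 higher and 45 lower genes, there were 961 and 75 with library totals only, 760 and 69 without a filter, 1475 and 288 with DESeq2, 733 and 72 with limma on log2(FPKM + 1), and 806 and 71 on log2(FPKM + 0.1). Leaving out single libraries gave 0 to 2159 higher and 0 to 1410 lower genes, the highest without TAE replicate 2. Without HCC replicates 1, 2 and 3 and TAE replicate 1, edgeR called 0, 1, 0 and 1 lower genes, and 2210, 2243, 1997 and 2197 genes had an unadjusted p under 0.05.

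With the replicate block edgeR called 0 higher and 0 lower genes (2984 at an unadjusted p under 0.05), 0 dehydrogenases and 0 urinary protein genes lower. The labels give a replicate number and do not say whether same-numbered libraries were paired. Correlations of same-numbered deviations were 0.1, -0.209 and 0.0335, which with 3 libraries per group cannot exclude a shared batch. Under the block the members changed by -2.76 (Dhrs7l1), -2.17 (Mettl7b), -1.85 (Gimd1) and -4.71 (LOC100360095).

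In the lists, DESeq2 called 1 dehydrogenase higher, 3 dehydrogenases lower and 1 methylation gene lower, and edgeR with a minimum of 1 FPKM on average called 0 dehydrogenases lower. For sulfide genes 1 was called higher with library totals only, without a filter, with DESeq2 and in both limma fits. Leaving out single libraries gave 0 to 10 dehydrogenases, 0 to 6 methylation genes, 0 to 3 sulfide genes, 0 to 4 lipid droplet genes and 0 to 4 urinary protein genes lower, the highest each without TAE replicate 3, and 0 to 2 dehydrogenases, 0 to 2 sulfide genes, 0 to 1 lipid droplet gene and 0 to 1 urinary protein gene higher, the highest each without TAE replicate 2. The cause was not tested. Depth limits Gimd1 most, at 16 to 22 counts per TAE library.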
